A study of Mus musculus with 6 samples.

Results

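The genes described here encode the collagens, the laminins and a set of matrix glycoproteins: every gene whose symbol has the form of a collagen chain (Col, number, a, number) or of a laminin chain (Lama, Lamb or Lamc with 1 digit), plus Fn1, Vcan, Sparc, Tnc, Spp1, Thbs1, Thbs2, Nid1, Nid2, Hspg2, Agrn and Fbln1. Of 67 such genes in the annotation, 58 had a value in at least 1 library, out of 20788 genes in all, and the 9 others (Col13a1, Col22a1, Col26a1, Col6a2, Col6a4, Col6a5, Lama1, Lamc3 and Tnc) were not analysed here. Their expression was compared between Tyr-H and Tyr-L cells, both subclones of B16, a transplantable melanoma line from C57BL/6 mice, which the labels separate by high and low tyrosinase activity. Both were grown in low-glucose DMEM with serum and antibiotics, no agent was added in either group by the labels, and 3 libraries of mRNA were sequenced from each. The study sorted subclones of the line into these groups by their use of tyrosine, the sources used here do not say how many subclones stand behind each group of libraries, and the cells were grown without stroma, immune cells or a tissue around them.

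The extracellular matrix is laid down as trimers and networks. Fibrillar collagens such as types I, V, XI and XXVII wind 3 chains, often products of different genes, into a triple helix, while type IV collagen and the laminins, each a trimer of an alpha, a beta and a gamma chain, form the 2 sheets of basement membranes, which nidogen (Nid1), perlecan (Hspg2) and agrin (Agrn) connect. Fibronectin (Fn1) is an adhesive glycoprotein bound by integrins, and matricellular proteins such as Sparc, osteopontin (Spp1) and thrombospondin 1 (Thbs1) modulate contacts between cells and matrix. In melanoma these genes are expressed both by the tumour cells and by fibroblasts, while the libraries here came from a cultured tumour line.

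The libraries matched their labels in the gene that defines them: Tyr, which encodes tyrosinase, had 10.7, 9.52 and 9.80 FPKM in Tyr-L libraries 1 to 3 and 23.8, 20.6 and 19.7 in Tyr-H libraries 1 to 3. The study shows Tyr from RNA sequencing where it divides the subclones, so this is not an independent check. FPKM express the fragments of a gene relative to its transcript length and to the library's mapped total. Depth, estimated from the steps between the lowest values, was 18600000 to 20900000 fragments in Tyr-L and 19000000 to 21100000 in Tyr-H. All 6 melanocyte lineage markers were detected, with a summed level of 7333 to 7649 FPKM in Tyr-L and 5417 to 5934 FPKM in Tyr-H, and Mitf, the lineage's transcription factor, was called lower in Tyr-H (log2 fold change -1.85). The study reports no difference in MITF between Tyr-H and Tyr-L cells in its figure of melanogenesis proteins. Of the 7 fibroblast and mural markers, only Postn, Pdgfrb and Pdgfra reached a mean of 0.1 FPKM, the list summed to 2.93 to 3.37 FPKM in Tyr-L and 1.92 to 2.31 FPKM in Tyr-H, Dcn and Lum stayed below that level, and Thy1 and Acta2 were not listed; the part of such cells in the results was not tested. No endothelial and no epithelial marker of 4 each reached it (at most 0.0540 and 0.234 FPKM in sum), and of 4 leukocyte markers Cd68 alone did (3.06 to 4.45 FPKM), with Ptprc not listed. Of 4 Schwann and neural crest markers, 3 reached it and 1 was called. That list summed to 33.83 to 39.51 FPKM in Tyr-L and 33.25 to 34.67 FPKM in Tyr-H. In bulk RNA, fewer cells of a type and less RNA per cell cannot be told apart.

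The matrix genes divided into few strong and many weak ones. Over the 6 libraries, 37 of the 58 genes had a mean of at least 0.1 FPKM, 24 reached 1 FPKM and 9 reached 10 FPKM. Sparc alone held 54.0% to 55.6% of the summed FPKM of all 58 genes in Tyr-L and 64.8% to 66.3% in Tyr-H. In Tyr-L the order by mean continued with Lamc1 (49.0 FPKM), Hspg2 (33.0), Fn1 (28.1), Agrn (23.2), Spp1 (22.6) and Fbln1 (16.9). In Tyr-H, Fn1 (52.2 FPKM) stood second, before Lamc1 (40.0), Hspg2 (30.5), Lama4 (18.7), Agrn (16.8), Lamb2 (12.6) and Spp1 (12.3). The 3 Fn1 libraries of Tyr-H lay above the 3 Lamc1 libraries of Tyr-H, whereas in Tyr-L all 3 Lamc1 values lay above those of Fn1. Agrn and Spp1 overlapped within Tyr-L, and within Tyr-H Lama4 overlapped Agrn and Lamb2 overlapped Spp1.

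**Figure D1:**
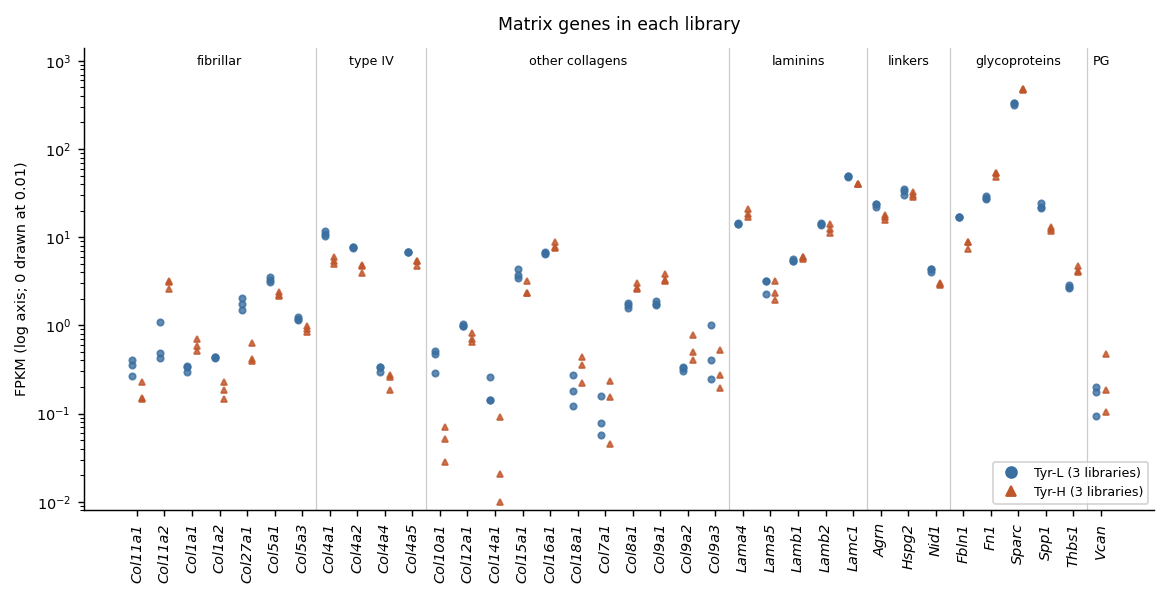
FPKM (log axis, 0 drawn at 0.01) of 36 of the 37 tested matrix genes in each of 3 Tyr-L (circles) and 3 Tyr-H (triangles) libraries, grouped as fibrillar collagens, type IV collagens, other collagens, laminins, basement membrane linkers, glycoproteins and the proteoglycan Vcan (PG). Sparc lies above all others in every library, and Col14a1 and Col10a1 in Tyr-H have the lowest group means.

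Col3a1 and the measured type VI chains were among the lowest genes. Of 38 collagen genes, 22 passed the filter of 0.1 FPKM, and the 21 matrix genes that failed it had means of at most 0.0912 FPKM. Col3a1, the chain of type III collagen, was not listed in 4 of 6 libraries and had 0.00718 and 0.00776 FPKM in Tyr-H libraries 2 and 3. Of the type VI chains that form beaded filaments, Col6a1, Col6a3 and Col6a6 were measured and all stayed under 0.02 FPKM in each library. Nid2, Thbs2, Col4a6 and Col8a2, partners or relatives of well-expressed genes, also failed the filter, and Lamb3, a laminin chain of epithelia, was not listed in any of the 3 Tyr-L libraries and had 0.0505, 0.136 and 0.00868 FPKM in Tyr-H. A level of 3 fragments corresponds to 0.0135 to 0.0394 FPKM for these 21 genes, by transcript length, and their values stand for an estimated 0 to 21.2 fragments a library.

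Between Tyr-H and Tyr-L cells, 5 of the 37 tested genes were called, where a call needed an adjusted p of at most 0.05 and a log2 fold change of at least 1 in either direction (limma on log2(FPKM + 0.1), Benjamini-Hochberg over all 14336 tested genes). That is 13.5% of them, beside 8.75% of all tested genes. Col11a2 was the 1 gene called higher in Tyr-H (2.96% of all tested genes were), and Col10a1, Col27a1, Col14a1 and Fbln1 were called lower (5.78% of all tested genes were). Col10a1 and Col14a1 passed the filter through Tyr-L alone, the group in which they were high, so a difference was built into their being tested. Of the 34 matrix genes with at least 0.1 FPKM in both groups, 3 were called, 1 higher and 2 lower, or 8.82% beside 7.25% of all such genes. Without Tyr-H library 2 the calls were 3, since Col14a1 and Fbln1 dropped out, and with a pseudocount of 1 FPKM Col11a2 was the 1 call left. Without the fold threshold, 25 matrix genes passed, 9 higher and 16 lower, which is 67.6% of those tested beside 57.8% of all genes. In 29 genes the 2 groups did not overlap, 10 higher and 19 lower, 78.4% beside 64% of all genes. The median log2 fold change was -0.33 over the tested matrix genes and -0.15 over all tested genes, and the median absolute value was 0.54 beside 0.32. The authors' FPKM thus put most genes slightly lower in Tyr-H: median ratio scaling moved the median of all genes to -0.01, the calls of all genes from 425 higher and 829 lower to 538 and 590, and the calls of matrix genes to 3 higher (Col11a2, Col9a1 and Fn1) and 2 lower (Col10a1 and Col27a1). With quantile normalization the calls of all genes were 599 higher and 508 lower and those of matrix genes 2 and 2, and after rescaling each library to one common total they were 403 and 1175, and 1 and 6.

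**Figure D2:**
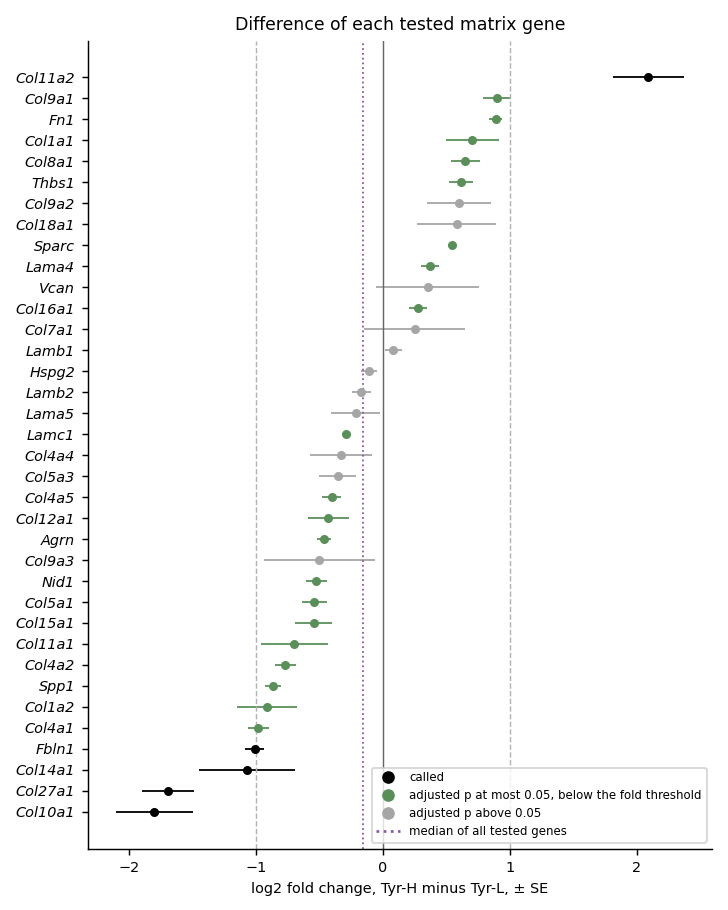
Log2 fold change (Tyr-H minus Tyr-L, on log2(FPKM + 0.1), bars are the SE, n = 3 libraries a group) of 36 of the 37 tested matrix genes. Dashed lines mark 1 and -1, and the dotted line marks the median of all tested genes at -0.15; Col11a2 lies alone above 1, and Fbln1, Col14a1, Col27a1 and Col10a1 lie below -1.

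Among the fibrillar collagens, 7 of 11 measured chains were tested. Col11a2, a chain of type XI collagen, which sits in the core of cartilage fibrils (ENSMUSG00000024330, GRCm38 chr17:34039437-34066685, + strand), had 0.422, 1.08 and 0.484 FPKM in Tyr-L libraries 1 to 3 and 3.11, 3.17 and 2.56 in Tyr-H. The second Tyr-L library was the highest of its group, and all 3 Tyr-H libraries still lay above it. The log2 fold change was 2.09 ± 0.28 (SE; limma adjusted p = 0.00018). It was 2.46 without Tyr-L library 2, 1.87 without Tyr-L library 1 and 1.27 with a pseudocount of 1 FPKM. Col27a1, the chain of type XXVII collagen (ENSMUSG00000045672, chr4:63214004-63334991, + strand), went the other way, with 1.75, 2.03 and 1.48 FPKM in Tyr-L and 0.625, 0.416 and 0.393 in Tyr-H. Its groups stood clearly apart, at a log2 fold change of -1.69 ± 0.20 (SE; limma adjusted p = 9.2e-05). With a pseudocount of 1 FPKM the change was -0.90, below the fold threshold. Col5a1, a chain of type V collagen that nucleates fibrils, was lower in Tyr-H below the fold threshold (3.31 ± 0.22 against 2.25 ± 0.12 FPKM, SD, n = 3; log2 fold change -0.54, limma adjusted p = 0.0014), and its relative Col5a3 had 1.18 ± 0.056 and 0.904 ± 0.076 FPKM (log2 fold change -0.36, limma adjusted p = 0.062; 0.032 after rescaling to a common total). Col5a3 also passed with a pseudocount of 1 FPKM (limma adjusted p = 0.042) and with eBayes without a trend (0.0093), and in no other alternative.

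Of the type I collagen trimer, one chain was higher and the other lower in Tyr-H, each past the adjusted p and neither past the fold threshold. Col1a1 and Col1a2 encode the 2 chains of type I collagen (Col1a1 at chr11:94936224-94953042 and Col1a2 at chr6:4504814-4541544, both + strand), and both were low in these melanoma cells. Col1a1 had 0.340, 0.344 and 0.296 FPKM in Tyr-L and 0.579, 0.511 and 0.708 in Tyr-H (log2 fold change 0.71 ± 0.21, limma adjusted p = 0.017). Col1a2 had 0.444, 0.439 and 0.429 FPKM in Tyr-L and 0.228, 0.148 and 0.187 in Tyr-H (log2 fold change -0.91 ± 0.24, limma adjusted p = 0.0087). Neither pair of groups overlapped, but the values rest on an estimated 32.6 to 79.7 fragments a library for Col1a1 and 16.7 to 49.1 for Col1a2, and without Tyr-H library 3 Col1a1 no longer passed (adjusted p = 0.069). Col1a2 was past the fold threshold with a pseudocount of 0.01 FPKM (-1.20), after rescaling (-1.14) and without Tyr-H library 1 (-1.01). The log2 ratio of Col1a1 to Col1a2 was -0.31, -0.28 and -0.42 in Tyr-L and 1.05, 1.30 and 1.49 in Tyr-H, on values with 0.1 FPKM added. Its difference of 1.62, which was 0.54 with a pseudocount of 1 FPKM and 2.05 with 0.01, had an exact permutation p of 0.10 (two-sided; 0.16 after Benjamini-Hochberg over 8 pairs), the smallest that 3 against 3 libraries allow.

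Type XI and type IX collagen occur together in cartilage fibrils. The ratio of Col11a1 to Col11a2 was chosen after its values were seen and has no test. Col11a1, the partner of Col11a2, had 0.405, 0.269 and 0.360 FPKM in Tyr-L and 0.149, 0.228 and 0.146 in Tyr-H (log2 fold change -0.70 ± 0.27, limma adjusted p = 0.048). It did not pass with a pseudocount of 0.01 FPKM (adjusted p = 0.058), without the filter (0.057), with median ratio scaling (0.089), with quantile normalization (0.17), or without Tyr-L library 1, Tyr-L library 3, Tyr-H library 1 or Tyr-H library 3 (0.11 to 0.13). The log2 ratio of Col11a1 to Col11a2 was -0.69 ± 0.87 (SD, n = 3) in Tyr-L and -3.48 ± 0.19 in Tyr-H, a difference of -2.79 that was -1.46 with a pseudocount of 1 FPKM. Col9a1, a chain of type IX collagen, had 1.77, 1.71 and 1.91 FPKM in Tyr-L and 3.83, 3.28 and 3.20 in Tyr-H, all above (log2 fold change 0.90 ± 0.11, limma adjusted p = 0.00011; 1.04 and past the fold threshold with median ratio scaling). Of its partners, Col9a2 had 0.338, 0.306 and 0.330 FPKM in Tyr-L and 0.404, 0.497 and 0.779 in Tyr-H (log2 fold change 0.60, limma adjusted p = 0.069, but 0.036 with median ratio scaling, 0.019 with quantile normalization and 0.037 without Tyr-H library 1). Col9a3 had 1.002, 0.248 and 0.408 FPKM in Tyr-L and 0.527, 0.196 and 0.271 in Tyr-H, overlapping (log2 fold change -0.50, limma adjusted p = 0.35). Its change was -0.04 without Tyr-L library 1 and -0.87 without Tyr-L library 2. The ratio of Col9a2 to Col9a3 overlapped between the groups (exact permutation p = 0.30, two-sided; 0.34 after Benjamini-Hochberg over 8 pairs). Col2a1, which encodes the main collagen of cartilage and the third type XI chain, failed the filter at 0.0524 and 0.0973 FPKM.

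**Figure D3:**
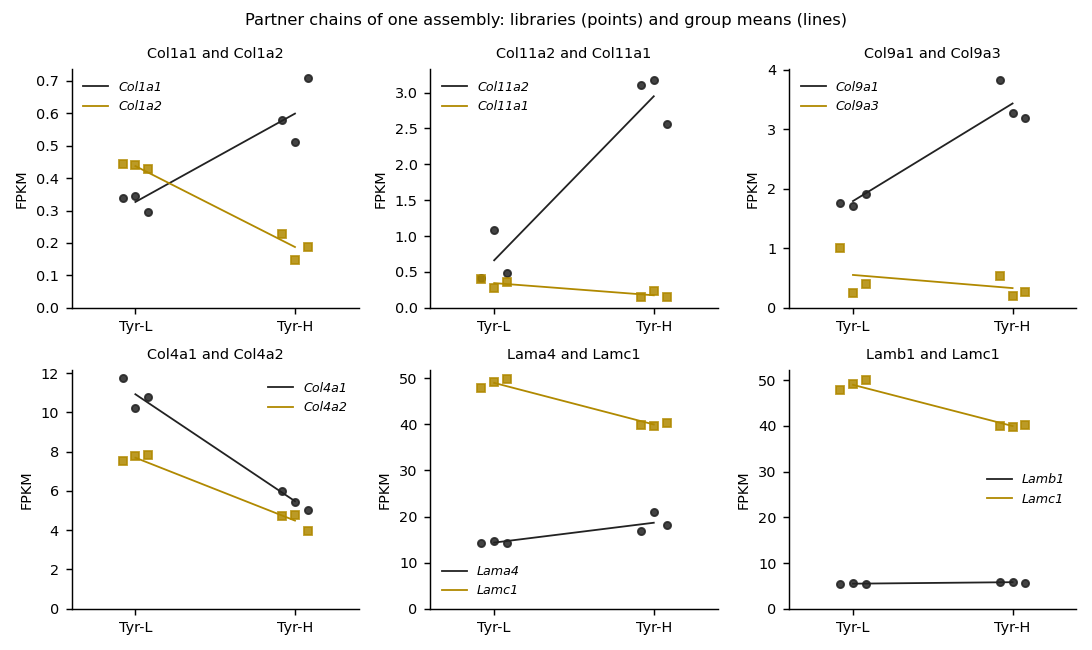
FPKM (linear axes from 0) of 6 pairs of chains that assemble together, in each of 3 libraries of Tyr-L and of Tyr-H (points), with group means joined by lines. Col1a1 and Col1a2, and Col11a2 and Col11a1, cross or spread apart between the groups, while both type IV chains fall together. In each drawn pair the log2 ratio of the chains did not overlap between the groups. Col11a2 and Col11a1, and Col9a1 and Col9a3, were not among the pairs fixed in advance. The fixed pairs that overlapped (Col9a2 and Col9a3, Lama5 and Lamc1, Lamb1 and Lamb2) are not drawn.

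Of the 6 type IV collagen genes, 4 were tested, 3 of them were lower in Tyr-H past the adjusted p, and none was called. Col4a1 and Col4a2 encode the 2 chains of its common trimer. Col4a1 (ENSMUSG00000031502, chr8:11198423-11312826, - strand) had 11.8, 10.2 and 10.8 FPKM in Tyr-L and 5.99, 5.42 and 5.02 in Tyr-H, a log2 fold change of -0.98 ± 0.083 (SE; limma adjusted p = 1.1e-05). That was just short of the fold threshold, and Col4a1 was past it after rescaling (-1.08), without Tyr-L library 2 (-1.03) or without Tyr-H library 1 (-1.05). Col4a2 (ENSMUSG00000031503, chr8:11312805-11449287, + strand) had 7.51, 7.75 and 7.81 FPKM in Tyr-L and 4.73, 4.78 and 3.96 in Tyr-H (log2 fold change -0.77 ± 0.085, limma adjusted p = 5.8e-05). The log2 ratio of Col4a1 to Col4a2 stayed close, at 0.50 ± 0.13 and 0.28 ± 0.092 (SD, n = 3), although its groups did not overlap (exact permutation p = 0.10, two-sided; 0.16 after Benjamini-Hochberg over 8 pairs). Col4a5 had 6.83 ± 0.049 FPKM and 5.15 ± 0.42 FPKM (log2 fold change -0.40, limma adjusted p = 0.0016), Col4a4 had 0.324 ± 0.021 and 0.239 ± 0.048 (limma adjusted p = 0.27), and Col4a3 and Col4a6 failed the filter. The change of Col4a5 was -0.25 with median ratio scaling and -0.23 with quantile normalization. The 6 genes summed to 25.2 to 26.4 FPKM in Tyr-L and 13.9 to 16.4 FPKM in Tyr-H, with no overlap.

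Col4a1 and Col4a2 are transcribed away from each other from one start region. Their annotated genes share 22 bases at the starts, and the exons overlap there, so reads of that stretch could have been assigned to either. The RefSeq promoter windows of both genes (GRCm38.p6, 250 bases before to 50 after the start) are shown because both chains were lower in Tyr-H, and those of Col11a1 and Col11a2 because their fold changes differed in sign. Capitals mark matches, on either strand, to any of the 6 motifs searched. The promoter elements were the letters GGGCGG for the so-called GC box, which Sp factors bind, then the letters CCAAT for the box that binds the factor NF-Y, and the letters TATAAA for the core element named after them. The enhancer elements were the letters TGANTCA for the AP-1 site, then the letters CACGTG for the E-box, and the letters CATGTG for the core of the M-box, these last 2 being bound by factors of the Mitf family. No match overlapped a match of another motif in these windows. The windows lie at chr8:11312777-11313076 (- strand), chr8:11312555-11312854 (+ strand), chr3:114030290-114030589 (+ strand) and chr17:34038888-34039187 (+ strand), in the order printed, and the first 2 share 78 bases.
Col4a1: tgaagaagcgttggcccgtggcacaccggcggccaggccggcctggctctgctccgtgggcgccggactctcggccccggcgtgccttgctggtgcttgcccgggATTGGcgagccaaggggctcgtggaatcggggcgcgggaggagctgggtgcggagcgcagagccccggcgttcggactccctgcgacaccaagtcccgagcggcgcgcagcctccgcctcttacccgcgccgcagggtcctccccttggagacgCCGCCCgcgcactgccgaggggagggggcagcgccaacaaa
Col4a2: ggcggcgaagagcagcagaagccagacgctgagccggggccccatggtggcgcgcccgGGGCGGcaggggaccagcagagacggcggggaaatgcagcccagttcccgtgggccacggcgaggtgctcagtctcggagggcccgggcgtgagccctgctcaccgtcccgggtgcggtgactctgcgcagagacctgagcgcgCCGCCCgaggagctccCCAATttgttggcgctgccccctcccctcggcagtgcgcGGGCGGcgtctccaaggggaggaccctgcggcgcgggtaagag
Col11a1: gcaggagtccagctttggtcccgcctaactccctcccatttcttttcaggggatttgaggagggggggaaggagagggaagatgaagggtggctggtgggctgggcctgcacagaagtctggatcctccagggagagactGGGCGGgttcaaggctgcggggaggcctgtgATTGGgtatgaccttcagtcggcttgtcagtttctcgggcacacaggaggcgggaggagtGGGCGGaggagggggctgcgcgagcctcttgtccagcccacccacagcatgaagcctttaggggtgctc
Col11a2: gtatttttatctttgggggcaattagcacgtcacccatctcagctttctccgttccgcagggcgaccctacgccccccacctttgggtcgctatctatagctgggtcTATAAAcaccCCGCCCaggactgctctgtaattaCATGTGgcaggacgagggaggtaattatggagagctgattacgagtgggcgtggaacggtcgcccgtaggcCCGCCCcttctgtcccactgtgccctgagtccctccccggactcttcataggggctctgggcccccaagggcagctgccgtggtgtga
Both type IV windows held a GC box and a CCAAT box, and the Col11a1 window held both too. The GC box of the Col4a1 window lies in the stretch shared with the Col4a2 window. It is 1 of the 3 GC boxes of Col4a2 read on the other strand, and it counts for both genes below. The Col11a2 window held a TATA box, an M-box core and 2 GC boxes, and no CCAAT box. Unlike the other windows printed, it ends before the annotated start of its gene (chr17:34039437), because the RefSeq and GENCODE starts differ. Of the 28 tested matrix genes with a window, 20 held a GC box, beside 35.9% of all 27025 windows, 13 a CCAAT box (37.9% of all) and 3 a TATA box (14.2%). Further, 2 held an M-box core (Col11a2 and Lamb1; 14.1% of all), 1 an E-box (Fbln1; 7.24%) and 0 an AP-1 site (7.93%). Of the 5 called genes, 4 have a window in the table, and GC boxes stood in those of Col11a2 and Col27a1 and TATA boxes in those of Col10a1 and Col11a2. A match is a description of the letters and not a binding site.

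The remaining collagens held the pair of calls that rest on the fewest fragments. Col10a1, the chain of type X collagen of hypertrophic cartilage (ENSMUSG00000039462, chr10:34389981-34397085, + strand), had 0.515, 0.292 and 0.478 FPKM in Tyr-L and 0.0695, 0.0516 and 0.0281 in Tyr-H. The groups were far apart at a log2 fold change of -1.80 ± 0.30 (SE; limma adjusted p = 0.00074), but the Tyr-H values stand for an estimated 1.7 to 4.2 fragments a library, and the change was -0.44 with a pseudocount of 1 FPKM. Its exons overlap those of Nt5dc1 on the opposite strand, which had 10.1 ± 0.44 FPKM in Tyr-L and 7.52 ± 0.77 in Tyr-H, and whether the counting used strand is not given in the sources used here. Col14a1, which encodes a fibril-associated collagen (chr15:55307750-55520803, + strand), had 0.261, 0.142 and 0.144 FPKM in Tyr-L and 0.0908, 0 (not listed) and 0.0207 in Tyr-H (log2 fold change -1.07 ± 0.38, limma adjusted p = 0.036). That call was lost when any 1 library other than Tyr-H library 1 was left out (log2 fold changes from -0.87 to -1.17, adjusted p from 0.053 to 0.12).

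Others of this group kept below the fold threshold. Col8a1, a short-chain network collagen, had 1.71 ± 0.11 FPKM in Tyr-L and 2.74 ± 0.22 in Tyr-H (SD, n = 3; log2 fold change 0.65, limma adjusted p = 0.00096). Col16a1, the strongest of these collagens, had 6.61 ± 0.14 and 8.04 ± 0.68 FPKM (log2 fold change 0.28, limma adjusted p = 0.0099; 0.066 after rescaling to a common total). The change of Col16a1 was 0.43 with median ratio scaling (limma adjusted p = 0.00067) and 0.45 with quantile normalization (0.00044). Col15a1, found at basement membranes, was lower in Tyr-H, at 3.83 ± 0.45 and 2.61 ± 0.52 FPKM (log2 fold change -0.54, limma adjusted p = 0.010; 0.060 with quantile normalization), and so was the fibril-associated Col12a1, at 1.01 ± 0.028 and 0.726 ± 0.089 FPKM (log2 fold change -0.43, limma adjusted p = 0.044). Col12a1 did not pass with median ratio scaling (0.16), with quantile normalization (0.21), without the filter (0.093) or when any 1 library other than Tyr-H library 1 was left out (0.084 to 0.12). Col18a1 and Col7a1 overlapped between groups at 0.0979 to 0.338 FPKM on average. The exons of Col15a1 overlap those of an annotated gene on the opposite strand.

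The laminins were measured in 9 genes, of which 6 were tested and none was called. Lamc1, which encodes the gamma chain of most laminins (chr1:153218922-153332786, - strand), had 47.8, 49.3 and 49.95 FPKM in Tyr-L and 39.9, 39.7 and 40.3 in Tyr-H. The groups were narrow and did not overlap (log2 fold change -0.29 ± 0.034, limma adjusted p = 7.5e-05), and with median ratio scaling the change was -0.14. Lama4, an alpha chain typical of vessels and mesenchyme (chr10:38965515-39110188, + strand), had 14.2, 14.6 and 14.2 FPKM in Tyr-L and 16.9, 20.95 and 18.2 in Tyr-H, all higher (log2 fold change 0.37 ± 0.073, limma adjusted p = 0.0020). Lamb1 had 5.33, 5.70 and 5.43 FPKM in Tyr-L and 5.94, 5.89 and 5.63 in Tyr-H, with overlap (log2 fold change 0.08, limma adjusted p = 0.32). Its change was -0.01 after rescaling each library to one common total, 0.23 with median ratio scaling (adjusted p = 0.017) and 0.26 with quantile normalization (adjusted p = 0.0092). Lamb2 had 14.4, 14.2 and 13.8 FPKM in Tyr-L and 11.3, 12.5 and 13.97 in Tyr-H, with overlap (log2 fold change -0.17, limma adjusted p = 0.077; 0.0063 after rescaling and 0.010 without Tyr-H library 3). The change of Lamb2 was -0.02 with median ratio scaling and with quantile normalization (limma adjusted p = 0.85 in both). Lama5, the other main alpha chain, had 2.27, 3.15 and 3.23 FPKM in Tyr-L and 1.95, 2.31 and 3.20 in Tyr-H, with overlap.

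Of the ratios to Lamc1, 3 of 4 did not overlap between the groups, and none passed an adjusted p of 0.05. The log2 ratio of Lama4 to Lamc1 was -1.74, -1.74 and -1.81 in Tyr-L and -1.24, -0.92 and -1.15 in Tyr-H, and that of Lamb1 to Lamc1 was -3.14, -3.09 and -3.18 and then -2.73, -2.73 and -2.82. The groups did not overlap in either ratio, nor in that of Nid1 to Lamc1 (-3.49 ± 0.072 against -3.73 ± 0.035, SD, n = 3), and each had the exact permutation p of 0.10 (two-sided; 0.16 after Benjamini-Hochberg over 8 pairs) that is the smallest possible. The ratios of Lama5 to Lamc1, Lamb1 to Lamb2 and Col9a2 to Col9a3 overlapped (exact permutation p = 0.90, 0.20 and 0.30). In all, 5 of the 8 pairs in which both chains were tested did not overlap, or 62.5%, and 4 of the 8 share Lamc1. Of all tested genes, 64% did not overlap, but that is a share of single genes. No such share was computed for ratios of other gene pairs. Lamc1 alone exceeded summed alpha chains (16.6 to 17.9 and 18.9 to 23.4) and summed beta chains (19.2 to 19.9 and 17.3 to 19.6) in every library.

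Of the proteins that link the laminin and collagen sheets, Agrn, a heparan sulfate proteoglycan (chr4:156165290-156197488, - strand), had 22.2, 24.0 and 23.5 FPKM in Tyr-L and 15.8, 17.8 and 16.8 in Tyr-H. These did not overlap (log2 fold change -0.46 ± 0.055, limma adjusted p = 8.8e-05). Nid1, nidogen 1, had 4.36, 4.06 and 4.37 FPKM in Tyr-L and 2.99, 2.93 and 2.87 in Tyr-H (log2 fold change -0.53 ± 0.083, limma adjusted p = 0.00051). Hspg2, perlecan, had 30.4, 34.8 and 33.8 FPKM and 30.0, 32.9 and 28.7 FPKM, with overlap (log2 fold change -0.11, limma adjusted p = 0.16; 0.030 after rescaling and 0.048 without Tyr-L library 1), and its sign turned to 0.04 with median ratio scaling.

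The glycoproteins held both the largest levels and a divided direction. Sparc, a collagen-binding matricellular protein (ENSMUSG00000018593, chr11:55394500-55423183, - strand), had 331, 335 and 317 FPKM in Tyr-L and 481, 472 and 478 in Tyr-H, a ratio of means of 1.46 (log2 fold change 0.54 ± 0.033, limma adjusted p = 1.9e-06). Fn1, fibronectin (ENSMUSG00000026193, chr1:71585520-71653200, - strand), had 27.2, 29.3 and 27.8 FPKM in Tyr-L and 48.3, 54.0 and 54.1 in Tyr-H, a ratio of means of 1.86 (log2 fold change 0.89 ± 0.052, limma adjusted p = 1.5e-06). Both were higher in all 3 Tyr-H libraries, and Fn1 was past the fold threshold with median ratio scaling (1.04). Thbs1, thrombospondin 1 (chr2:118111876-118127133, + strand), had 2.66, 2.89 and 2.73 FPKM in Tyr-L and 4.70, 4.16 and 3.996 in Tyr-H (log2 fold change 0.61 ± 0.095, limma adjusted p = 0.00045).

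Fbln1 and Spp1 were lower. Fbln1 encodes fibulin 1, which binds fibronectin, nidogen and laminin (ENSMUSG00000006369, chr15:85205949-85286535, + strand), and it had 16.8, 16.8 and 17.1 FPKM in Tyr-L and 8.84, 7.36 and 8.90 in Tyr-H. The groups lay far apart (log2 fold change -1.01 ± 0.075, limma adjusted p = 5.3e-06), yet the value sat at the fold threshold: it was -0.92 without Tyr-H library 2 and -0.86 with median ratio scaling. Spp1, osteopontin (chr5:104435118-104441050, + strand), had 24.2, 21.6 and 21.8 FPKM in Tyr-L and 13.01, 11.6 and 12.3 in Tyr-H (log2 fold change -0.87 ± 0.062, limma adjusted p = 4.2e-06). Vcan, the proteoglycan versican, had 0.199, 0.177 and 0.0939 FPKM and 0.471, 0.187 and 0.103 FPKM, with overlap. Exons of Fn1, Spp1, Thbs1, Nid1, Col5a1 and Col9a3 overlap those of other annotated genes, which makes their values less certain.

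**Figure D4:**
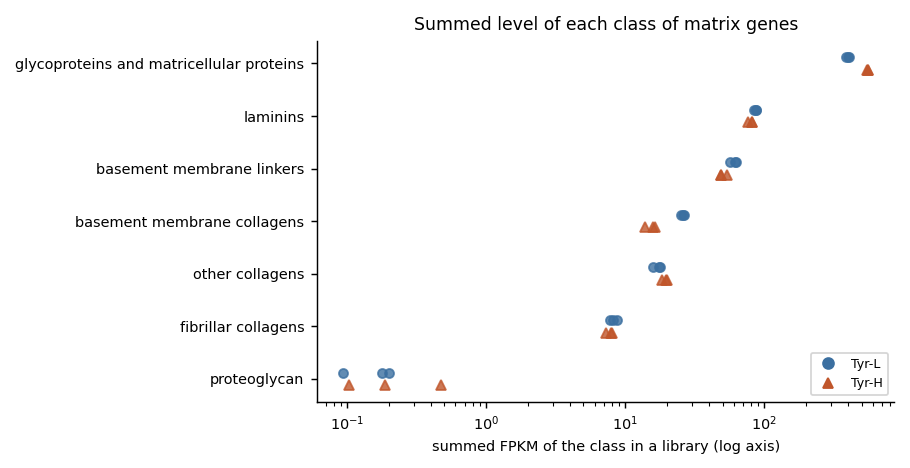
Summed FPKM (log axis) of each class of matrix genes in each of 3 Tyr-L (circles) and 3 Tyr-H (triangles) libraries. The glycoproteins lie at 386 to 406 FPKM in Tyr-L and 549 to 557 FPKM in Tyr-H, and the type IV (basement membrane) collagens lie lower in Tyr-H without overlap.

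By class, the summed level of glycoproteins was 398 ± 10 FPKM in Tyr-L and 554 ± 4.6 in Tyr-H (SD, n = 3), or 66.8% ± 0.87 and 76.2% ± 0.71 of all matrix FPKM. Laminins held 14.5% ± 0.33 and 11.01% ± 0.41, the linkers 10.2% ± 0.51 and 6.91% ± 0.39, and type IV collagens 4.33% ± 0.15 and 2.11% ± 0.18. Fibrillar collagens held 1.38% ± 0.069 and 1.06% ± 0.058. These are shares of 1 total, so a higher Sparc lowers the other shares by construction. Without Sparc, the matrix genes summed to 264 to 271 FPKM in Tyr-L and 245 to 256 FPKM in Tyr-H. That order depends on the scaling. The median ratio factors were 1.05 to 1.06 in Tyr-L and 0.940 to 0.956 in Tyr-H, and sums divided by them lie higher in Tyr-H. Matrix genes together held 0.130% to 0.134% of each Tyr-L library's FPKM and 0.147% to 0.153% of each Tyr-H library's.

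The genes that modify, fold, process and cross-link collagen were examined in a list of 34, of which 32 had a value and 27 were tested. The calls were 3 higher and 0 lower in Tyr-H (limma; 16 passed the adjusted p alone, 11 higher and 5 lower), which is 11.1% called beside 8.75% of all genes and 59.3% past the adjusted p beside 57.8%, both near the background when directions are pooled. By direction, 2.96% of all genes were called higher and 5.78% lower, and 2570 passed the adjusted p higher and 5722 lower. The difference in direction was not tested. The median log2 fold change of the maturation genes was 0.14, beside -0.15 over all genes. P3h2, a prolyl 3-hydroxylase active on type IV collagen, had 10.0, 10.5 and 9.82 FPKM in Tyr-L and 26.6, 28.3 and 26.8 in Tyr-H (log2 fold change 1.42 ± 0.048, limma adjusted p = 1.3e-07). It was the 1 well-expressed gene among the calls. The lysyl oxidase relatives Loxl2 and Loxl4 were the other calls. Loxl2 had 0.687, 0.269 and 0.332 FPKM in Tyr-L and 0.833, 1.08 and 0.942 in Tyr-H (log2 fold change 1.06, limma adjusted p = 0.010). Loxl4 had 0.0385, 0.0718 and 0.0590 FPKM in Tyr-L and 0.223, 0.290 and 0.217 in Tyr-H (log2 fold change 1.13, limma adjusted p = 0.0089), and it passed the filter through Tyr-H alone. Of the 24 maturation genes with at least 0.1 FPKM in both groups, 2 were called (8.33% beside 7.25%). With a pseudocount of 1 FPKM P3h2 was the 1 call left, and without Tyr-L library 2, Tyr-L library 3 or Tyr-H library 2 there were 2 calls. Of the genes that passed the adjusted p alone, those with the largest positive log2 fold changes were the transglutaminase Tgm2 (0.81), the propeptide protease Adamts14 (0.80) and the prolyl 4-hydroxylase subunits P4ha2 (0.65) and P4ha1 (0.53). Those with the largest negative ones were the lysyl hydroxylase Plod2 (-0.42), the chaperone Fkbp10 (-0.40) and Loxl3 (-0.35), all 7 named after their values were seen.

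Of 32 matrix receptor genes, 29 had a value and 25 were tested, with 2 called higher and 0 lower (limma; 16 passed the adjusted p alone, 7 higher and 9 lower) and a median log2 fold change of -0.10. That is 8.0% called beside 8.75% of all genes and 64.0% past the adjusted p beside 57.8%, both near the background when directions are pooled. By direction, 2.96% of all genes were called higher and 5.78% lower, and 2570 passed the adjusted p higher and 5722 lower. The called genes were Itgb8, an integrin beta chain that pairs with Itgav (0.336, 0.294 and 0.363 FPKM in Tyr-L and 0.924, 0.827 and 0.905 in Tyr-H, log2 fold change 1.19, limma adjusted p = 0.00045), and Itga3, an alpha chain of a laminin-binding integrin (0.308, 0.122 and 0.305 FPKM and then 0.619, 0.522 and 0.627, log2 fold change 1.05, limma adjusted p = 0.011). With a pseudocount of 1 FPKM neither was called. Receptor calls were 2 higher and 1 lower with a pseudocount of 0.01, after rescaling to a common total and without Tyr-H library 2. They were 3 higher and 0 lower with median ratio scaling and with quantile normalization. Among receptors that passed the adjusted p alone, the 4 with the largest positive changes were Itgb5, an integrin beta chain that pairs with Itgav (6.15 ± 0.36 and 12.1 ± 0.58 FPKM, log2 fold change 0.96), the collagen receptor Ddr2 (34.7 ± 1.8 and 54.6 ± 3.9 FPKM, log2 fold change 0.65) and the fibronectin-receptor chains Itga5 (6.85 ± 0.27 and 9.07 ± 0.41 FPKM, log2 fold change 0.40) and Itgb1 (140 ± 1.7 and 165 ± 2.0 FPKM, log2 fold change 0.23). The 4 with the largest negative changes were the collagen-binding Itga10 (0.336 and 0.137 FPKM, log2 fold change -0.90), the laminin-binding Itga6 (59.2 and 32.0 FPKM, log2 fold change -0.89), Itgav (33.0 and 19.4 FPKM, log2 fold change -0.77) and Cd44, a receptor for hyaluronan and osteopontin (128 and 83.9 FPKM, log2 fold change -0.61). These 8 were named after their values were seen.

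**Figure D5:**
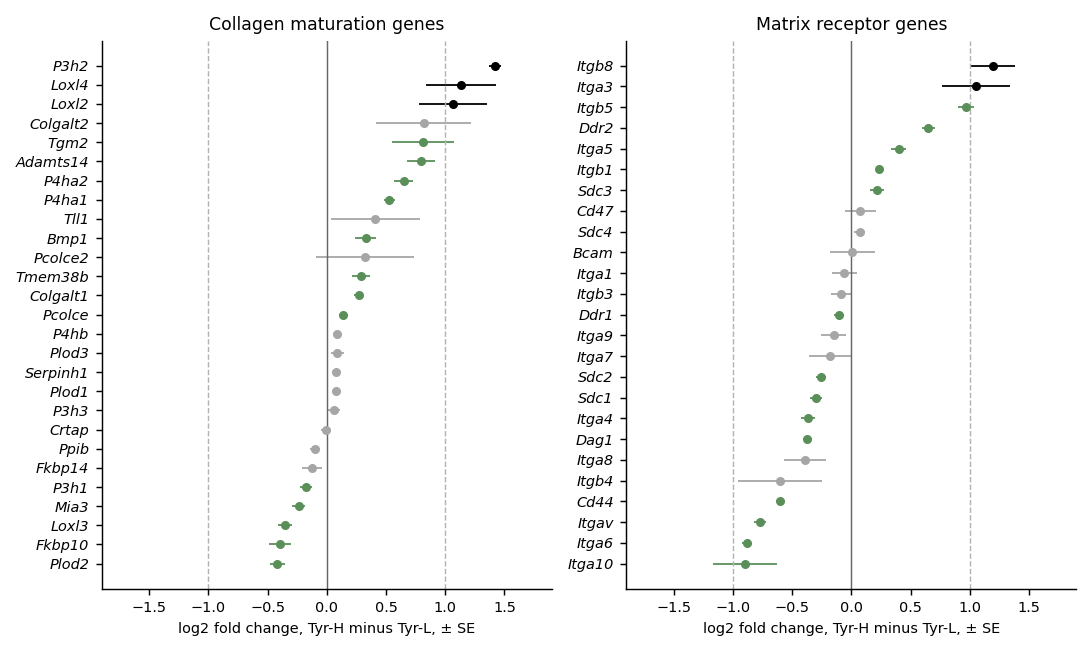
Log2 fold change (Tyr-H minus Tyr-L, bars are the SE, n = 3 libraries a group) of 27 collagen maturation genes (left) and 25 matrix receptor genes (right). Black points were called, green passed the adjusted p alone, grey did not pass; dashed lines mark 1 and -1, and P3h2 is the maturation gene with the largest value at 1.42.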

How the data were processed

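Libraries of mRNA from 3 Tyr-H and 3 Tyr-L samples of B16 subclones had been sequenced as paired ends of 150 bp. For each library the authors deposited FPKM. Their processing notes name Trimmomatic, HISAT2 and HISAT and the build GRCm38.p6; the quantifier, the annotation and the use of strand are not given in the sources used here. Groups came from the labels, which do not say whether the samples were separate cultures, so p-values measure the spread between these samples, which may be technical. A gene not listed in a library was taken as 0.

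The 14336 of 20788 genes that averaged 0.1 FPKM or more across the 6 libraries were compared on log2(FPKM + 0.1) with limma 3.58.1 in R 4.3.3 (eBayes, trend on; Benjamini-Hochberg adjustment covering the whole table). Calls required both an adjusted p not above 0.05 and a log2 change of 1 or more in size. A fold change on this scale understates that of low genes. FPKM keep no counts, so no count test was run. Depth was estimated from the steps between low values of genes with 1 transcript of at least 1500 nt, and 3 fragments served as a floor, which covers counting error only. Ratios between chains, as log2 of FPKM + 0.1, had an exact permutation test, two-sided (scipy 1.17.1). Coordinates are those of GENCODE M21 (GRCm38), counted from 1, and promoter windows are RefSeq's; a gene with several windows was represented by the first listed. The code was tested on simulated data.

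Per-library values are given for called genes, Col1a2, Fn1, genes with at least 20 FPKM in either group and members of a chain pair, and of the maturation and receptor lists for called genes, with others named where a sentence says so or where a class is described. The members and lists were chosen with earlier results of these data known. Alternatives were pseudocounts of 0.01 and 1, no filter, a mean of at least 1 FPKM, 3 other scalings, eBayes without a trend, a replicate block, each library left out and no fold threshold. The values of 1 tested gene are not reported here.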

Additional observations from a re-analysis of the deposited data

How the results depend on the processing

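The number of matrix genes called, 5 as reported, was 4 to 6 with a pseudocount of 0.01 (6), no filter (5), median ratio scaling (5), quantile normalization (4) or eBayes without a trend (5), and 7 after rescaling to a common total. A pseudocount of 1 FPKM left 1 (Col11a2), a mean of at least 1 FPKM left 3 of 24 tested, and dropping the fold threshold gave 25. Leaving out single libraries gave 3 to 7, with 3 without Tyr-H library 2. Among the maturation genes (3 called) these settings gave 1, 1 and 16, and 2 to 4 over libraries left out, and among the receptors (2 called) 0, 0 and 16, and 2 to 3. Over all genes (1254 called) they gave 388, 640 and 8292, and 1150 to 1281. The cause was not tested, except that fewer genes are tested at the higher filter. Over genes with at least 0.1 FPKM in both groups, a count chosen after seeing the data, 3 matrix genes were called.

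Signs turned in 4 matrix genes that were never called: Col7a1 without Tyr-H library 2 (log2 fold changes from -0.013 to 0.58 over libraries left out), Vcan without Tyr-H library 1 (-0.062 to 0.68), Hspg2 with median ratio scaling (0.041) and Lamb1 after rescaling (-0.010). The Col1a1 to Col1a2 difference of 1.62 was 2.05 with a pseudocount of 0.01, 0.54 with 1 and 1.84 after rescaling. That of Nid1 to Lamc1 (-0.23) was -0.13 with a pseudocount of 1 and -0.16 with quantile normalization, and that of Lamb1 to Lamc1 (0.37) was 0.46 with the latter. The Lama5 to Lamc1 difference of 0.08 ranged from -0.11 to 0.23 over libraries left out. The share of type IV collagens changed by -1.79 percentage points with quantile normalization, that of linkers by -2.43, beaded filaments by 0.0044, fibrillar collagens by -0.13, glycoproteins by 6.27, laminins by -2.18 and other collagens by 0.23, where that last change was -0.19 as deposited, so that its sign turned. The Col11a1 to Col11a2 difference (-2.79) was -1.46 with a pseudocount of 1.

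The replicate numbers did not pair the samples (correlations of same-numbered deviations 0.022, 0.013 and -0.083). A replicate block gave 1258 calls over all genes, 5 of matrix genes, 3 of maturation genes and 2 of receptors. Under the block, Col11a1 (adjusted p = 0.089) and Col12a1 (0.080) no longer passed the adjusted p.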
